A study of Mus musculus with 12 samples.

Results

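TRAV7D-2 and TRAV7-2 are duplicate copies of a variable (V) segment of the mouse T cell receptor (TCR) alpha chain. Both are listed on chromosome 14 in the RefSeq annotation. Every alpha chain named as either copy was taken from the TCR libraries of mouse tumours. The pair of names was selected on clone size, because TRAV7D-2 was more frequent among receptors of 3 or more cells than among receptors seen in 1 cell. No chain carried the name TRAV7-2 (0 of 24173 alpha chains), and 2425 chains carried the name TRAV7D-2. Whether the annotation used by the authors holds both copies could not be checked. The name TRAV7D-2 is therefore not read as showing which copy a cell used. Of the 2423 barcodes with such a chain, 23 had no beta chain and 227 had surplus chains. The other 2173 were 11.4% of 19115 paired cells, and they carried 383 of 10624 distinct receptors, or 3.61%.

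A TCR alpha chain is made by joining 1 V segment to 1 J segment, and a beta chain by joining V, D and J segments. The first and second loops of each chain (CDR1 and CDR2) are encoded in the V segment, whereas CDR3 spans the junction, where bases can be trimmed or added. Cells that descend from the same T cell carry the same pair of chains, so a receptor found in many cells of a tumour marks an expanded clone. The mouse alpha locus holds duplicated V segments, marked D and N in their names, and reads of near-identical copies can be split between names.

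The tumours were grown under the skin of 6 to 8 week old C57BL/6J mice from MC38-p53KO cells, a derivative of the mouse colon carcinoma line MC38 that lacks its own p53 and carries a p53 substitution, written R175H in one label and R175W in another. Tumours of about 50 to 100 mm³ were injected once, on day 10, with 40 µg of LNP-P20-mAb (3 TCR libraries) or of LNP-Ctrl (3 TCR libraries). Viable CD45+ leukocytes were sorted, and about 10000 cells per sample entered droplet 5′ libraries with TCR enrichment. The question of the series was how these treatments change the T and NK cells inside the tumour. Another 6 gene expression samples were not analysed here, so the T cells are known only by their TCR chains. The labels do not say that each library came from a separate animal, and p-values measure the spread between libraries.

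The libraries held 2016 to 3923 paired cells and 85835 to 145847 unique molecular identifiers (UMIs), which count captured transcripts. LNP-P20-mAb 1 and 2 share clones. They had 11 TRAV7D-2 receptors in common with the same bases in both chains, and these held 95.4% (LNP-P20-mAb 1) and 95.0% (LNP-P20-mAb 2) of all TRAV7D-2 cells there. Any pair of libraries shared 11 to 29 cell barcodes, and only 1 barcode, between those 2 libraries, had the same CDR3 in both. Beside results that this sharing touches, values with both counted as 1 sample are given where a call is lost or a value moves clearly. Most of the 227 TRAV7D-2 barcodes set aside for surplus chains came from LNP-P20-mAb 1 (126 of 590 barcodes) and LNP-P20-mAb 2 (60 of 403). The loss was 10 of 540 for LNP-P20-mAb 3, 7 of 575 for LNP-Ctrl 1, 16 of 164 for LNP-Ctrl 2 and 8 of 151 for LNP-Ctrl 3. Values with surplus barcodes kept are given below for some partner segments and for CDR3 length.

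All 2425 TRAV7D-2 chains had the same V region before CDR3, with no base differing among them. It is shown because it is what the cells have in common before their junctions, with CDR1 and CDR2 in capitals.
TRAV7D-2 V region: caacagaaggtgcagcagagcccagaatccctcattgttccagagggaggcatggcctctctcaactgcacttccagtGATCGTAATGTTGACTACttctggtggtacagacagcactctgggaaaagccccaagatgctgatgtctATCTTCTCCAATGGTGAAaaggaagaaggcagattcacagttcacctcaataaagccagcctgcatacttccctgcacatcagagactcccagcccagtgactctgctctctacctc

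The other 10 TRAV7 segments differed from it at 25 to 46 of 264 bases. TRAV7-1, TRAV7-4 and TRAV7D-4 were the nearest, with 90.5% identity each. TRAV7-3 and TRAV7D-3 had the same CDR2 as TRAV7D-2, and no other TRAV7 segment had its CDR1. The germline part of CDR3 was read from the chains themselves. It was extended base by base while at least a share of 0.6 of the chains still matching had the same next base. It reads tgtgcagcaagc. Over 385 TRAV7D-2 chains, each counted once per receptor, the CDR3 began with CAA in 97.1% and with CAAS in 61.3%.

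TRAV7D-2 cells made up 14.1%, 17.0% and 18.2% of paired cells in LNP-P20-mAb 1, 2 and 3, against 17.0%, 3.72% and 3.75% in LNP-Ctrl 1, 2 and 3. TRAV7D-2 had more cells than any other TRAV segment in all 3 LNP-P20-mAb libraries and in LNP-Ctrl 1, and it had rank 5 of 88 in LNP-Ctrl 2 and rank 3 of 86 in LNP-Ctrl 3. LNP-Ctrl 1 lay within the LNP-P20-mAb range, so the treatments overlapped. The mean share was 16.5% ± 2.10 over LNP-P20-mAb libraries and 8.14% ± 7.63 over LNP-Ctrl libraries (SD, n = 3 each), a difference of 8.31 percentage points (exact permutation p = 0.2, two-sided; the smallest p of this design is 0.1). Leaving out 1 library gave differences from 6.1 points (without LNP-Ctrl 2) to 12.7 points (without LNP-Ctrl 1). The latter had exact permutation p = 0.1, the smallest that 3 against 2 libraries allow.

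Counted by distinct receptors, TRAV7D-2 was in 4.63%, 6.75% and 3.10% of receptors in LNP-P20-mAb 1, 2 and 3, and in 2.89%, 3.43% and 3.81% in LNP-Ctrl 1, 2 and 3. The means were 4.83% ± 1.83 and 3.37% ± 0.461 (SD, n = 3 each; exact permutation p = 0.3), and the difference of 1.45 points was 0.49 without LNP-P20-mAb 2 and 2.31 without LNP-P20-mAb 3. With LNP-P20-mAb 1 and 2 as 1 sample it was 0.671 points (exact permutation p = 0.5). The 95% interval of LNP-P20-mAb 2 (4.50 to 9.67%) did not overlap those of LNP-Ctrl 1 (2.16 to 3.77%) and LNP-Ctrl 2 (2.82 to 4.13%). Nor did it overlap that of LNP-P20-mAb 3 (2.24 to 4.17%), of the same treatment. In the edgeR fit over 155 V and J segments, 4 segments (2.58%) passed an adjusted p of 0.05, and TRAV7D-2 was not among them (log2 change 0.34 ± 0.23 SE, LNP-P20-mAb over LNP-Ctrl, adjusted p = 0.490). That change was 0.10 without LNP-P20-mAb 2 and 0.19 with LNP-P20-mAb 1 and 2 as 1 sample. None of the other 10 TRAV7 segments passed either: 2 were higher and 8 lower, with a median log2 change of -0.41, against -0.05 over all 155 segments.

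**Figure D1:**
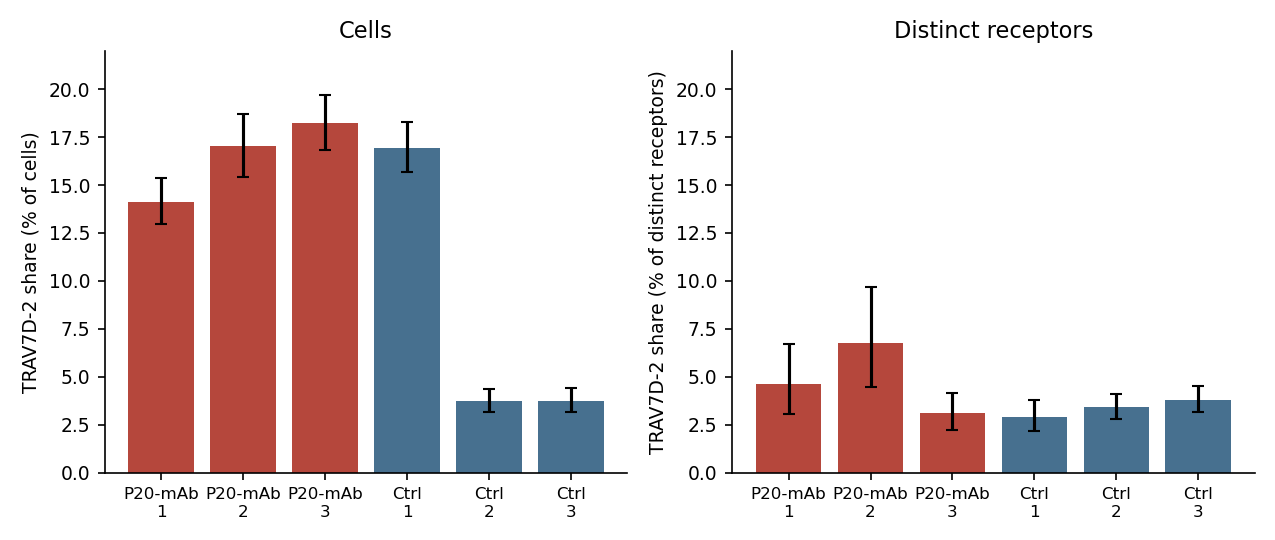
Share of TRAV7D-2 (%) among T cells (left) and among distinct receptors (right), 1 bar per library, LNP-P20-mAb in red and LNP-Ctrl in blue, with 95% exact binomial intervals. By cells, 4 libraries sit between 14.1% and 18.2% and LNP-Ctrl 2 and 3 near 3.7%; by receptors all 6 lie between 2.89% and 6.75%.

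Most TRAV7D-2 cells belonged to a few large clones. Clones of 20 or more cells held 91.3%, 82.2% and 85.3% of TRAV7D-2 cells in LNP-P20-mAb 1, 2 and 3. A single clone held 82.8% of them in LNP-Ctrl 1, and LNP-Ctrl 2 and 3 had none of that size, their largest being 18 and 6 cells. With clones of 20 or more cells of any receptor left out, TRAV7D-2 cells were 4.34%, 8.24% and 3.99% in LNP-P20-mAb 1, 2 and 3, against 4.25%, 4.20% and 3.82% in LNP-Ctrl 1, 2 and 3 (exact permutation p = 0.4). The 6 libraries together had 9 TRAV7D-2 receptors of 20 or more cells with 1613 cells, 29 of 3 to 19 cells with 192, 23 of 2 cells, and 322 seen in 1 cell.

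Cells in clones of 2 or more were 97.0%, 94.8% and 94.2% of TRAV7D-2 cells in LNP-P20-mAb 1, 2 and 3, and 92.9%, 34.9% and 10.7% in LNP-Ctrl 1, 2 and 3. The treatments did not overlap, though LNP-Ctrl 1, at 92.9%, lay close to the lowest LNP-P20-mAb library, at 94.2%. The means were 95.3% ± 1.46 and 46.2% ± 42.2 (SD, n = 3 each; exact permutation p = 0.1, the smallest possible, and 0.3 after Benjamini-Hochberg adjustment over 6 comparisons of treatments). The difference of 49.1 points was 72.5 without LNP-Ctrl 1 and 31.4 without LNP-Ctrl 3. With LNP-P20-mAb 1 and 2 as 1 sample it was 49.2 points (exact permutation p = 0.2). Among all other cells the same share was 84.2%, 82.8% and 50.5% in LNP-P20-mAb 1, 2 and 3, and 41.9%, 25.7% and 11.9% in LNP-Ctrl 1, 2 and 3. Other cells did not overlap between treatments either, so the separation was not particular to TRAV7D-2. Since the selection was on clone size, the values of this share are a description. No support is drawn from its p-values, and nothing is read from TRAV7D-2 cells against other cells in it.

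**Figure D2:**
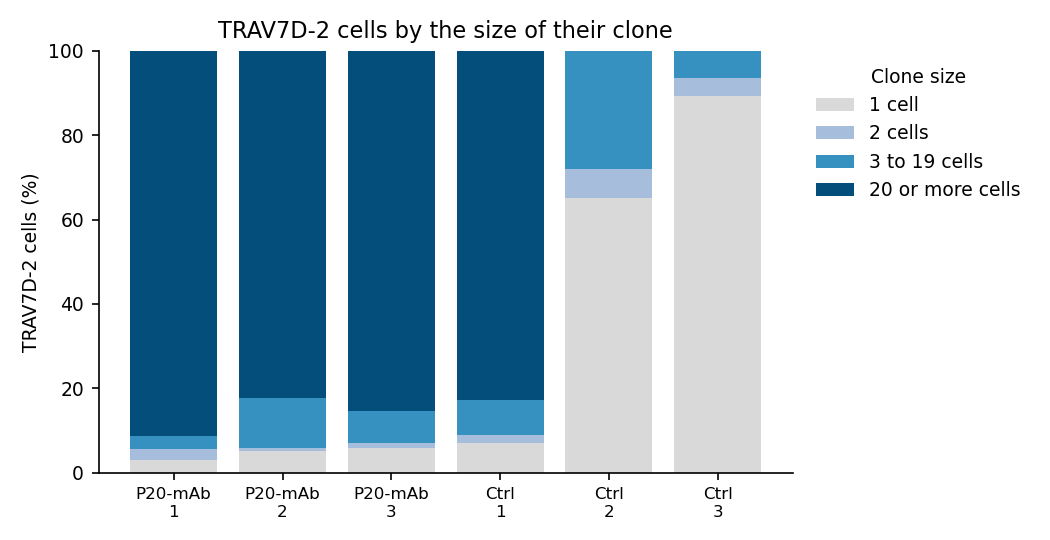
TRAV7D-2 cells of each library (%), stacked by the number of cells of their clone. Clones of 20 or more cells hold over 80% in LNP-P20-mAb 1 to 3 and in LNP-Ctrl 1, and receptors seen in 1 cell hold 65.1% in LNP-Ctrl 2 and 89.3% in LNP-Ctrl 3.

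The values that led to the selection were as follows, with no test. TRAV7D-2 was in 38 of 468 receptors of 3 or more cells, 23 of 372 receptors of 2 cells and 322 of 9784 receptors of 1 cell. In receptors of 3 or more cells its share was 8.45%, 10.8% and 8.57% in LNP-P20-mAb 1, 2 and 3, and 7.87%, 6.90% and 4.76% in LNP-Ctrl 1, 2 and 3. In receptors of 1 cell it was 3.07%, 5.88% and 2.54% in LNP-P20-mAb 1, 2 and 3, and 2.43%, 3.27% and 3.79% in LNP-Ctrl 1, 2 and 3, lower in 6 of 6 libraries. Receptors of 2 cells, just outside that size, lay between 3.75% and 17.1%.

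The large clones shared the V segment but used different J segments, junctions and beta chains. The alpha CDR3 bases of the 6 distinct receptors of 20 or more cells are shown because these receptors hold most TRAV7D-2 cells. Capitals mark bases that the ends of V and J, read from all receptors of each segment, do not account for.
LNP-P20-mAb 3, 414 cells, TRAJ17: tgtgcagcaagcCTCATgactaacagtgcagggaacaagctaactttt
LNP-P20-mAb 1 and 2, 201 and 154 cells, TRAJ4: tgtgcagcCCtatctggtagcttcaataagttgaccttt
LNP-P20-mAb 1 and 2, 194 and 108 cells, TRAJ31: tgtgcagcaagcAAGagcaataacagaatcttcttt
LNP-P20-mAb 3, 38 cells, TRAJ22: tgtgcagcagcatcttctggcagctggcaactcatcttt
LNP-P20-mAb 1 and 2, 26 and 20 cells, TRAJ26: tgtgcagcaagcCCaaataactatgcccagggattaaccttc
LNP-Ctrl 1, 468 cells, TRAJ30: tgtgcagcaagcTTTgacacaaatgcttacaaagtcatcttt

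The TRAJ17 clone was 14.6% of LNP-P20-mAb 3 (95% interval 13.3 to 15.9%) and was paired with TRBV3 and the beta CDR3 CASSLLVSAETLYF. Of its 414 cells, 404 had the TRAV7D-2 chain, and 335 had a second alpha chain, of TRAV4-2 and TRAJ35. The TRAJ4 clone (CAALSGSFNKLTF) was 6.16% of LNP-P20-mAb 1 and 7.64% of LNP-P20-mAb 2, and it too used TRBV3, with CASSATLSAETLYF. The TRAJ31 clone (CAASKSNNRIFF) was 5.95% and 5.36% of the same libraries and used TRBV26. The TRAJ26 clone (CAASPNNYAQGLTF) used the beta V segment that the files name TRBV12-2+TRBV13-2, with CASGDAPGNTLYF. The TRAJ22 clone (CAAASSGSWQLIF) was 1.34% of LNP-P20-mAb 3 and used TRBV20 with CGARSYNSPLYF. In LNP-Ctrl 1 the TRAJ30 clone (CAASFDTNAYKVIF) was 14.04% of paired cells (12.9 to 15.3%) and used TRBV20 with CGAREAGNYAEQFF.

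Receptors with the same segments and nearly the same CDR3s were found in more than 1 library. Comparing libraries with each other, except LNP-P20-mAb 1 with 2, 23 pairs of TRAV7D-2 receptors had the same TRAJ, TRBV and TRBJ and at most 1 mismatch in each CDR3. They made 8 groups of 25 receptors with 569 cells. In 8 pairs both CDR3s had identical amino acids, and in none were the bases of both chains identical: they differed at 1 to 7 bases over both CDR3s. Of the 23 pairs, 15 joined an LNP-P20-mAb with an LNP-Ctrl library, 6 joined LNP-P20-mAb libraries and 2 joined LNP-Ctrl libraries. These counts are not rates, because far fewer pairs were compared within LNP-P20-mAb than across treatments or within LNP-Ctrl. TRAV7D-2 receptors numbered 26, 27 and 42 in LNP-P20-mAb 1, 2 and 3, and 52, 106 and 130 in LNP-Ctrl 1, 2 and 3. The rate was 40.9 per 100000 pairs of receptors compared for TRAV7D-2 and 13.3 for all other TRAV segments together, each compared within its own segment. With receptors held by both LNP-P20-mAb 1 and 2 counted once, TRAV7D-2 had 18 such pairs, or 34.2 per 100000, against 10.9 for the others. Of 78 TRAV segments with 30 or more receptors, TRAV9-2 had more such pairs (40), 10 had a higher rate and 47 had none.

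The group with most cells joined TRAJ30 to TRBV20 and TRBJ2-1. It is shown with its alpha and beta CDR3, since 4 libraries of both treatments held it, and capitals mark bases that differ from the 468-cell receptor of LNP-Ctrl 1.
LNP-P20-mAb 3, 13 cells, alpha: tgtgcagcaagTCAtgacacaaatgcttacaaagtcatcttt
LNP-P20-mAb 3, 13 cells, beta: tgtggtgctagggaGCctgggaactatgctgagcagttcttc
LNP-P20-mAb 1 and 2, 2 and 1 cells, alpha: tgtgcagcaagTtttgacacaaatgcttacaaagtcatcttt
LNP-P20-mAb 1 and 2, 2 and 1 cells, beta: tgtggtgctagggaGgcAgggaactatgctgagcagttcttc
LNP-Ctrl 1, 468 cells, alpha: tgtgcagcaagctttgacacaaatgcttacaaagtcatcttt
LNP-Ctrl 1, 468 cells, beta: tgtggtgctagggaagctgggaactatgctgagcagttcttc

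The receptor of LNP-P20-mAb 1 and 2 encodes the same amino acids as that of LNP-Ctrl 1 in both CDR3s, with 1 base changed in the alpha and 2 in the beta chain. The receptor of LNP-P20-mAb 3 differs from it by F5H in the alpha and A6P in the beta CDR3, counted from the first CDR3 residue. The group held 13, 2 and 1 cells of LNP-P20-mAb 3, 1 and 2, against 468 cells of LNP-Ctrl 1.

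The TRAJ7, TRBV16 and TRBJ2-7 group had CAATDYSNNRLTL with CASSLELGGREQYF in 6, 11 and 5 cells of LNP-P20-mAb 1, 2 and 3, where LNP-P20-mAb 3 differed from the others at 1 beta base. LNP-Ctrl 3 had a variant of it in 3 cells, with T4S in the alpha and R10P in the beta CDR3. A second TRAJ7 group, with TRBV5, TRBJ2-3 and the alpha CDR3 CAASDYSNNRLTL, had 2, 17 and 7 cells in LNP-P20-mAb 1, 2 and 3, again with 1 beta base apart in LNP-P20-mAb 3, and no cell in LNP-Ctrl libraries, where 3 cells would be 0.0765 to 0.09% of a library. LNP-P20-mAb 1 (I5H, V7I) and LNP-P20-mAb 2 (I5K) had near copies, of 1 cell each, of a TRAJ32 and TRBV3 receptor with 18 cells in LNP-Ctrl 2. The TRAJ22, TRBV20 and TRBJ1-1 group, had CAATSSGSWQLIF with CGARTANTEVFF in 3 cells of LNP-P20-mAb 3 and 2 cells of LNP-Ctrl 3, and 1 more cell of LNP-P20-mAb 3 had it with T4A in the alpha CDR3. The other 3 groups had 2 or 3 cells each.

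**Figure D3:**
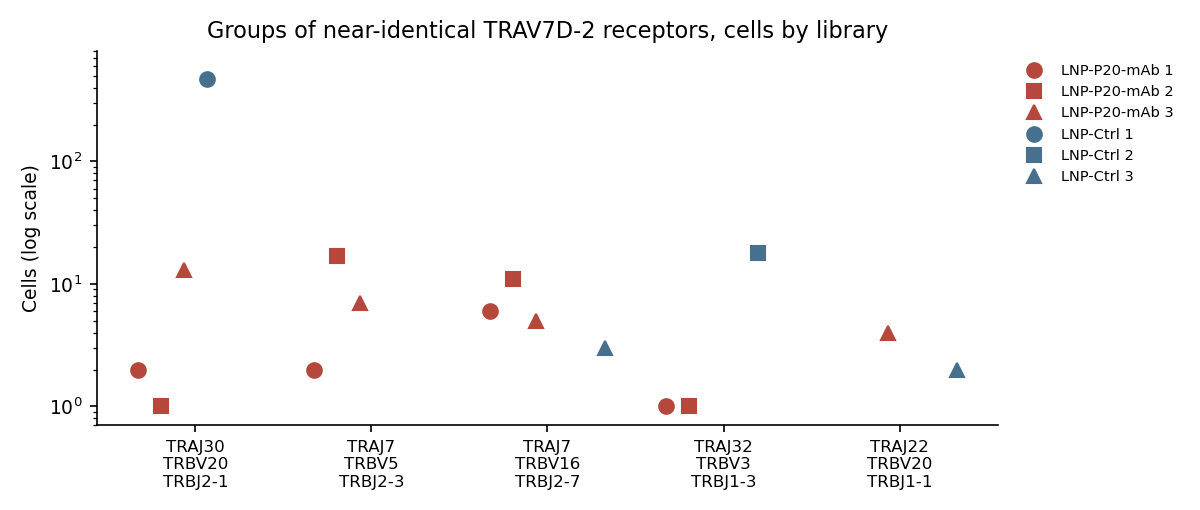
Cells (log scale) per library in the 5 groups of near-identical TRAV7D-2 receptors with most cells, LNP-P20-mAb in red and LNP-Ctrl in blue; a library without a cell has no point. The TRAJ30 and TRBV20 group spans 1 to 468 cells over 4 libraries, and the TRAJ7 and TRBV16 group 3 to 11 cells over 4.

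The alpha chain alone recurred more often than the pair. Among 315 distinct TRAV7D-2 alpha CDR3s, 28 were seen in 2 or more samples, counting LNP-P20-mAb 1 and 2 as 1: 2 in 4 samples, 7 in 3 and 19 in 2. Both that were seen in 4 used TRAJ22. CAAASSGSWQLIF was in 7 receptors with 5 TRBV segments and 44 cells, and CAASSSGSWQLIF was in 6 receptors with 5 TRBV segments and 6 cells. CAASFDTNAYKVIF, with TRAJ30, was in 3 samples and always with TRBV20. CAASDYSNNRLTL, CAATDYSNNRLTL and CAAKDYSNNRLTL, all with TRAJ7, were each in 3 samples, in 33, 23 and 7 cells. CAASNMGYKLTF (TRAJ9), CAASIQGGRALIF (TRAJ15) and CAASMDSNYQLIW (TRAJ33) were in 3 samples too, with 4, 3 and 3 cells, and each of their receptors had a different TRBV. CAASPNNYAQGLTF (TRAJ26), in 2 samples, had 47 cells. Of the 28, 4 were found with 1 TRBV only.

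Partner segments were compared within each library between TRAV7D-2 receptors and all other receptors, which the selection did not use. Of 77 TRAJ, TRBV and TRBJ segments, 9 (11.7%) passed an adjusted p of 0.05 in edgeR's quasi-likelihood test, 5 higher and 4 lower beside TRAV7D-2. With TMM scaling the split was 3 higher and 7 lower, the median over all segments being -0.23 on the log2 scale, against -0.03 without it. With LNP-P20-mAb 1 and 2 as 1 sample the same 9 passed. The TRAJ counts of receptors include the TRAJ of a second alpha chain. On the TRAV7D-2 chain itself TRAJ22 was found 42 times, TRAJ9 24, TRAJ7 23, TRAJ23 23, TRAJ49 4 and TRAJ48 1. With the TRAJ counted only on that chain, against all other alpha chains, the 9 passed again, among 11. DESeq2 called 4 of them: TRAJ7, TRAJ57, TRBV20 and TRBV26.

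TRAJ7 was higher beside TRAV7D-2 in 6 of 6 libraries, at 15.4%, 7.41% and 11.9% of TRAV7D-2 receptors in LNP-P20-mAb 1, 2 and 3 and 5.77%, 5.66% and 3.85% in LNP-Ctrl 1, 2 and 3. Its mean was 8.33% ± 4.41 of TRAV7D-2 receptors and 2.58% ± 0.660 of other receptors (SD, n = 6), a log2 difference of 1.49 ± 0.38 SE (edgeR adjusted p = 0.00312). TRAJ9 had means of 8.07% ± 5.75 and 3.47% ± 0.469, higher in 6 of 6 libraries (log2 1.09 ± 0.35 SE, edgeR adjusted p = 0.0183). It missed the threshold with TMM (edgeR adjusted p = 0.0830), with surplus barcodes kept (0.0622), without LNP-P20-mAb 1 (0.107) and without LNP-Ctrl 3 (0.229). TRAJ22, the most used with 46 receptors, had 12.9% ± 3.24 and 7.03% ± 0.743, higher in 5 of 6 libraries (log2 0.79 ± 0.25 SE, edgeR adjusted p = 0.0183). TRAJ22 missed it with TMM (edgeR adjusted p = 0.117), with surplus barcodes kept (edgeR adjusted p = 0.0507) and without LNP-P20-mAb 3, LNP-Ctrl 1 or LNP-Ctrl 3 (edgeR adjusted p = 0.0834, 0.0557 and 0.209).

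TRAJ57, TRAJ49 and TRAJ48 were lower beside TRAV7D-2 in 6 of 6 libraries. In LNP-P20-mAb 1 and 2 other receptors had TRAJ57 at 2.80% and 2.41% and TRAJ48 at 1.87% and 2.14%. With 26 and 27 TRAV7D-2 receptors there, the absence of these 2 segments says little in those libraries. The same holds for TRAJ49, absent there too, with 5.41% and 5.09% of other receptors. It also holds for TRAJ57 in LNP-P20-mAb 3 and LNP-Ctrl 1, with 42 and 52 TRAV7D-2 receptors. Other receptors there had TRAJ57 at 2.21% and 2.06%. The count of 6 libraries thus rests in part on such absences. TRAJ57 was in 0 of 383 TRAV7D-2 receptors and 230 other receptors, or 2.33% ± 0.281 of them (edgeR adjusted p = 0.00312). Against a floor of 3 receptors over all libraries it was at least 2.87-fold lower beside TRAV7D-2. TRAJ49 was in 4 TRAV7D-2 receptors, with means of 0.810% ± 0.998 and 4.55% ± 0.828 (log2 -1.98 ± 0.60 SE, edgeR adjusted p = 0.0141). TRAJ48 was in 2, with means of 0.478% ± 0.802 and 2.82% ± 0.835 (log2 -2.44 ± 0.79 SE, edgeR adjusted p = 0.0183). Leaving out LNP-Ctrl 1 or LNP-Ctrl 2 ended the call of TRAJ49 (edgeR adjusted p = 0.0557 and 0.0672). Leaving out LNP-P20-mAb 3, LNP-Ctrl 2 or LNP-Ctrl 3 ended that of TRAJ48 (edgeR adjusted p = 0.0834, 0.0577 and 0.162).

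The numbers of TRAJ segments run down along the locus, from the end nearest the V segments to the end nearest the constant region. The mean TRAJ number joined to TRAV7D-2 was 21.2, 25.9 and 23.9 in LNP-P20-mAb 1, 2 and 3 and 21.2, 25.0 and 24.0 in LNP-Ctrl 1, 2 and 3. It was 23.5 ± 1.95 for TRAV7D-2 chains and 30.1 ± 0.429 for all other alpha chains (SD, n = 6), lower in 6 of 6 libraries (exact sign-flip permutation p = 0.031, the smallest possible). With LNP-P20-mAb 1 and 2 as 1 sample the difference was -6.57, lower in 5 of 5, and missed the threshold (exact permutation p = 0.0625, the smallest that 5 samples allow). J segments numbered above 40, the V-proximal ones, made 8.37% ± 5.36 of TRAV7D-2 chains and 25.7% ± 1.46 of other alpha chains. This measure was chosen after the values of the single segments were seen. It uses the same receptors, so its p-values are no separate support.

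On the beta side TRBV26 and TRBV20 were higher and TRBV12-1 lower. TRBV26 was 3.85%, 11.1% and 7.14% of TRAV7D-2 receptors in LNP-P20-mAb 1, 2 and 3 and 9.62%, 7.55% and 6.92% in LNP-Ctrl 1, 2 and 3. Its mean was 7.70% ± 2.49, against 2.66% ± 0.797 of other receptors, higher in 6 of 6 libraries (log2 1.44 ± 0.35 SE, edgeR adjusted p = 0.00312). TRBV20 had means of 7.73% ± 4.52 and 2.54% ± 1.35, also higher in 6 of 6 (log2 1.25 ± 0.38 SE, edgeR adjusted p = 0.0141), and missed the threshold without LNP-P20-mAb 3 (edgeR adjusted p = 0.182). TRBV12-1 had means of 2.60% ± 2.93 and 6.77% ± 1.70, lower in 5 of 6 (log2 -1.53 ± 0.45 SE, edgeR adjusted p = 0.0132), and missed it without LNP-Ctrl 1 (edgeR adjusted p = 0.0681).

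Among the most used partners that did not pass were TRBV12-2+TRBV13-2 with 42 receptors, TRBV3 with 40, TRBV5 with 27 and TRAJ23 with 27. TRBV3 averaged 12.4% ± 6.91 of TRAV7D-2 receptors and 5.49% ± 3.79 of other receptors (log2 0.60 ± 0.28 SE, edgeR adjusted p = 0.139). With surplus barcodes kept it passed, at log2 1.14 (edgeR adjusted p = 0.0111). TRBJ2-7 was in 60 TRAV7D-2 receptors (log2 -0.37 ± 0.18 SE, edgeR adjusted p = 0.164) and passed with TMM, at log2 -0.61 (edgeR adjusted p = 0.0381). TRBJ1-1 was in 52 (log2 0.50 ± 0.23 SE, edgeR adjusted p = 0.139). Counted by cells, TRBV3 was in 862 TRAV7D-2 cells, TRBV20 in 544 and TRBV26 in 331, most of them in the large clones named above.

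**Figure D4:**
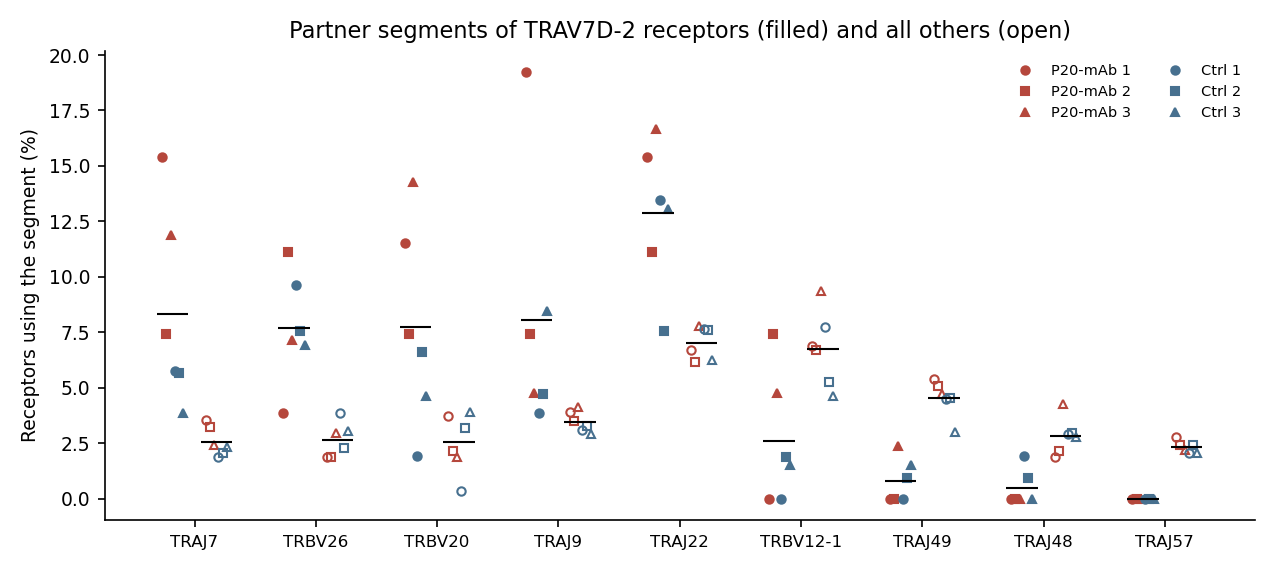
Share of receptors (%) using each of the 9 called partner segments, among TRAV7D-2 receptors (filled) and all other receptors (open), 1 point per library, with the mean as a line. TRAJ7, TRBV26, TRBV20, TRAJ9 and TRAJ22 have the higher means with TRAV7D-2, and TRAJ57 has no TRAV7D-2 receptor in any library.

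TRBV3 was the most frequent beta V segment among expanded TRAV7D-2 receptors, a pattern chosen after its values were seen and given without a test. With clones shared by LNP-P20-mAb 1 and 2 counted once, 10 of 33 TRAV7D-2 receptors of 3 or more cells used TRBV3, with 7 different TRAJ segments and in all 6 libraries at 3 to 414 cells. In the 375 other receptors of 3 or more cells, 20 used it (5.33%). Among receptors under 3 cells its share was alike, with 27 of 339 beside TRAV7D-2 (7.96%) and 739 of 9721 without (7.60%). The contrast thus lay in the expanded receptors, the class used for the selection. Of the 10 expanded TRAV7D-2 receptors with TRBV3, 9 had a beta CDR3 of 14 residues, and 5 of those 9 had valine at position 7. They were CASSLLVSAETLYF (414 cells, LNP-P20-mAb 3), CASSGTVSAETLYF (4 cells, LNP-P20-mAb 2), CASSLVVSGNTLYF (18 cells, LNP-Ctrl 2), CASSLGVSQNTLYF (13 cells, LNP-Ctrl 1) and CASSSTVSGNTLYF (9 cells, LNP-Ctrl 1). Among other receptors of 3 or more cells 1 of 8 such chains had that valine. In receptors under 3 cells it was in 2 of 14 with TRAV7D-2 and in 7 of 260, or 2.69%, without.

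The alpha CDR3 was shorter in TRAV7D-2 receptors than in other receptors by about 0.2 residues. Its length, over 385 chains, had a median of 13 residues and a range of 7 to 17, and 41.8% of chains had 13. Mean lengths were 13.6, 13.7 and 13.4 residues in LNP-P20-mAb 1, 2 and 3 and 13.4, 13.3 and 13.5 in LNP-Ctrl 1, 2 and 3. The mean over libraries was 13.49 ± 0.131 for TRAV7D-2 and 13.70 ± 0.0416 for other alpha chains (SD, n = 6), lower in 6 of 6 (difference -0.218, exact sign-flip permutation p = 0.031, the smallest possible, 0.0469 after Benjamini-Hochberg adjustment over 3 measures). With surplus barcodes kept the difference was -0.165 (exact permutation p = 0.156), and over cells -0.199 (exact permutation p = 0.656). With LNP-P20-mAb 1 and 2 as 1 sample, or without any 1 library, the exact permutation p was 0.0625, the smallest that 5 samples allow. The bases between the ends of V and J were 2.97 ± 0.307 for TRAV7D-2 and 2.77 ± 0.0571 for other chains (exact sign-flip permutation p = 0.219, n = 6), and the difference changed sign with another reading of the segment ends.

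TRAV7D-2 chains had more UMIs per cell than other alpha chains. The median over receptors was 9.5, 10 and 11 UMIs in LNP-P20-mAb 1, 2 and 3 and 12, 6 and 8 in LNP-Ctrl 1, 2 and 3, while for other alpha chains it was 7, 8 and 7 in LNP-P20-mAb 1, 2 and 3 and 8, 5 and 5 in LNP-Ctrl 1, 2 and 3. The means were 9.42 ± 2.15 and 6.67 ± 1.37 (SD, n = 6), higher in 6 of 6 (difference 2.75, exact sign-flip permutation p = 0.031, 0.0469 adjusted over 3 measures). Among receptors seen in 1 cell the difference was also 2.75, in 6 of 6 libraries (exact sign-flip permutation p = 0.031). The beta chains of the same receptors were higher in UMIs than other beta chains in 3 libraries and lower in 2 (difference -0.5, exact sign-flip permutation p = 0.812, n = 6). Between 1 and 17 of the 14 to 78 TRAV segments with 10 or more receptors in a library had a higher median than TRAV7D-2. Counting LNP-P20-mAb 1 and 2 as 1 sample gave exact permutation p = 0.0625, again the smallest possible.

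**Figure D5:**
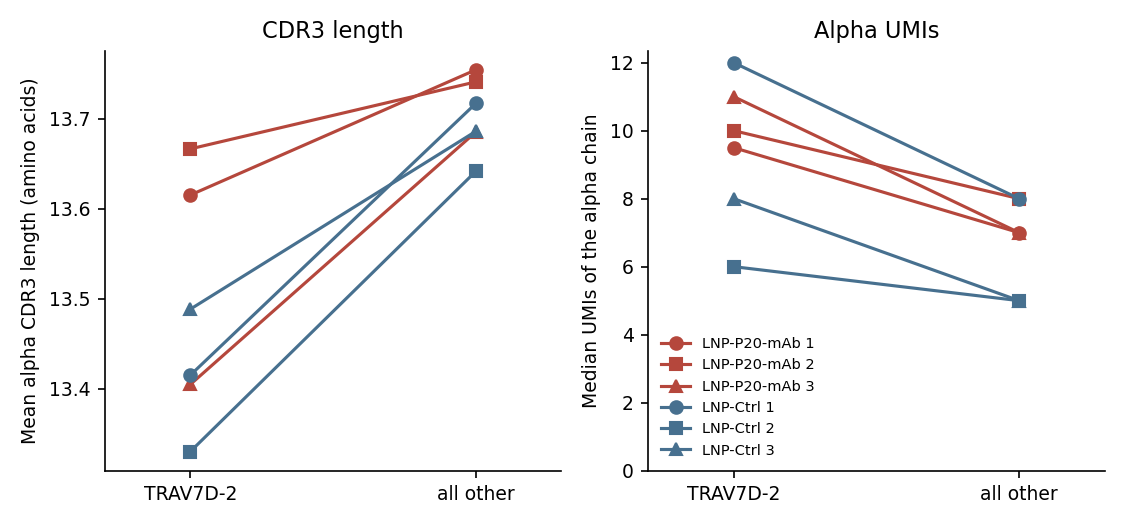
Mean alpha CDR3 length in amino acids (left) and median UMIs of the alpha chain (right) for TRAV7D-2 and all other alpha chains, 1 line per library, LNP-P20-mAb in red and LNP-Ctrl in blue. The length is lower and the UMI count higher for TRAV7D-2 in 6 of 6 libraries.

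A second alpha chain was found in 1.95%, 3.21% and 66.8% of TRAV7D-2 cells in LNP-P20-mAb 1, 2 and 3, and in 2.12%, 30.8% and 28.6% in LNP-Ctrl 1, 2 and 3. The value of LNP-P20-mAb 3 comes with the TRAJ17 clone and its TRAV4-2 chain. A cell with 2 alpha chains has 2 chances to carry a given V segment, so other cells are no match, and receptors seen in 1 cell were set beside other TRAV segments instead. There the share was 14.3%, 38.9% and 16.7% in LNP-P20-mAb 1, 2 and 3 and 21.95%, 30.5% and 25.4% in LNP-Ctrl 1, 2 and 3, and the median over other TRAV segments with 10 or more such chains lay between 16.7% and 23.5% in the 6 libraries. TRAV7D-2 lay above that median in 4 of 6 libraries. Of 38 TRAV7D-2 receptors of 3 or more cells, 9 had a second alpha chain, each with a different partner except TRAV6D-6, which was in 2.

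The 3 TRAV segments whose share of cells over the 6 libraries was most like that of TRAV7D-2 were TRAV7-3 (Pearson r = 0.875), TRAV7N-6 (r = 0.546) and TRAV9-2 (r = 0.451). TRAV7-3 had 5.36%, 5.11% and 4.85% of cells in LNP-P20-mAb 1, 2 and 3, and 3.21%, 1.20% and 1.23% in LNP-Ctrl 1, 2 and 3. These are descriptions over 6 libraries, 2 of which share clones.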

How the data were processed

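TCR chains of sorted CD45+ tumour cells were analysed from 6 libraries. Cell Ranger 8.0.1 is named per the submitters' processing notes, which list several mouse builds without saying their use; coordinates are therefore left out. The authors deposited, for each assembled chain, its segments, its CDR3 and raw counts of reads and UMIs, and chains lost at assembly leave no trace. Paired cells had 1 TRB and 1 or 2 TRA chains. A receptor was the set of cells of a library with the same TRB chain and a shared TRA chain, and a TRA chain belonged to it when at least 20% of its cells carried that chain. Counts of distinct receptors per segment (30 or more in all) were tested with edgeR 4.0.16 (quasi-likelihood, Benjamini-Hochberg, threshold 0.05) in R 4.3.3, with the number of receptors as library size. The partner comparison had the library as a block, and DESeq2 1.42.0 was an alternative. Single values had two-sided exact permutation tests. Intervals are 95% exact Clopper-Pearson and, like all counts, cover counting error only. The statistics were tested on simulated data. Python 3.11.15 with pandas 2.3.3 and scipy 1.17.1 did the rest.

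The members and lists were chosen with earlier results of these data known. Named were both TRAV segments, all called partner segments, the 4 TRAJ, 4 TRBV and 2 TRBJ in most TRAV7D-2 receptors, clones of 20 or more cells, and recurring alpha CDR3s. Features named outside this rule were chosen after their values were seen.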

Additional observations from a re-analysis of the deposited data

How the results depend on the processing

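The direction of each treatment difference in the TRAV7D-2 shares and of the within-library differences in CDR3 length and UMIs held under every alternative run, and no alternative called TRAV7D-2 between treatments. With the replicate block the usage change was 0.37 on the log2 scale (edgeR adjusted p = 0.522) and the differences in shares had exact p = 0.25 to 0.5. The block called 5 segments between treatments. Same-numbered libraries did not deviate together (correlations of -0.0699, -0.151 and -0.0797 for numbers 1, 2 and 3), and no library correlated best with its own number, so the numbers were not taken as pairs.

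Of segments called between treatments, DESeq2 and pooling LNP-P20-mAb 1 and 2 each gave 2 and leaving out a library gave 2 to 14. Counting cells gave 0 with edgeR, where 43 had an unadjusted p under 0.05. Partner segments called numbered 4 with DESeq2, 21 with cells counted and 6 to 11 without each library. With cells counted, 21 of 21 were lower beside TRAV7D-2, the median over segments being -1.88 on the log2 scale. That setting turned TRAJ22 to -0.57, TRAJ7 to -0.13, TRAJ9 to -1.88, TRAJ23 to -2.56, TRBJ1-1 to -1.61 and TRBV12-2+TRBV13-2 to -0.54, and the cause was not tested. TRBV12-2+TRBV13-2 also turned, to -0.0397 with TMM and -0.0122 with DESeq2, and ran from -0.0597 to 0.377 without each library. TRBV5 ran from -0.181 to 0.17 without each library. None of these last was called in any direction under those settings.

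The CDR3 length difference missed the threshold at -0.165 with surplus barcodes kept, -0.237 with LNP-P20-mAb 1 and 2 pooled and -0.199 over cells, and ran from -0.246 to -0.199 without each library. The UMI difference was 2.9 pooled and 2.5 to 3.1 without each library. Exact permutation tests on 5 libraries cannot go below p = 0.0625. The bases between V and J turned to -0.0304 with ends read at a share of 0.5. No chain was named TRAV7-2, so counting the names apart, or TRAV7D-2 alone, gave the same values, and the share named TRAV7-2 was 0 throughout. Thinning and the removal of large clones were chosen after seeing the data, as were the share of 0.5, the count of TRAJ on the alpha chain itself and the pooled TRAJ number.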
